A study of Mus musculus with 12 samples.

Results

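Mouse rectum in which Apc had been targeted through an Lgr5 driver was compared with mouse rectum in which Apc had been targeted through a Cdx2 driver, gene by gene. The comparison covered the autosomal genes with a deposited value of at least 1 FPKM (a fragment count normalised for transcript length and for library size) in at least 2 of the 7 libraries of these groups. That rule took 15297 of the 27785 genes in the table. A further 485 genes that passed the same filter lie on the X or Y chromosome, and 189 had no position in the annotations used.

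The Lgr5-Apc group, genotype Lgr5creER;APC flox, held 4 libraries, and the Cdx2-Apc group, genotype CDX2creER;APC flox, held 3. Both received tamoxifen by intraperitoneal injection at 25 mg/kg on 5 consecutive days, per the labels. The 3 control libraries carry WT in their titles and CDX2creER;APC flox (WT) as their genotype. Their sample characteristics list no tamoxifen, although the treatment protocol attached to them is that of the other groups. The 2 Lgr5-Cdx2-Apc libraries carry both drivers and entered only the estimate of the spread and the values given beside a result. All 12 libraries are titled rectum tissue, which mixes cell types, so fewer cells of a type and less RNA per cell cannot be told apart. The labels give no age, sex, strain or time between injection and harvest, and they do not say whether libraries came from separate animals, so the p-values measure only the spread between these samples.

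Apc is a scaffold of the complex that marks beta-catenin for destruction, and its loss leaves beta-catenin free to drive Wnt target genes with the TCF and LEF factors. Lgr5 is a receptor for R-spondins that marks the dividing stem cells at the base of intestinal crypts, whereas Cdx2 is a homeobox factor of the intestinal epithelium at large. CreER is a recombinase that enters the nucleus when tamoxifen binds it, so the 2 drivers name different cells in which the floxed Apc allele can be recombined.

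Libraries of the same group differed in what tissue they held, and these differences come before the results they touch. Read depth is not given for FPKM values, and the totals of the 7 libraries lay between 451297 and 618990 FPKM. The score of a gene list is the mean log2(FPKM + 1) over its members. For 30 genes of keratinised or stratified epithelium, the score was 4.56, 8.95, 8.14 and 0.76 in Lgr5-Apc replicates 1 to 4 and 1.21, 1.45 and 4.31 in Cdx2-Apc replicates 1 to 3. For 10 keratins, adhesion and structural genes of columnar epithelium, the score was 6.45 in Lgr5-Apc replicate 2 and between 8.49 and 8.84 in the other 6 libraries. The rectal label was also read against the most posterior Hox genes. Hoxb13 lay at 110, 26.9, 118 and 0.924 FPKM in Lgr5-Apc and at 123, 148 and 154 FPKM in Cdx2-Apc. Hoxd13 lay at 0.395 FPKM and Hoxa13 at 1.33 FPKM in Lgr5-Apc replicate 4. Among the 7 libraries compared, this puts these defining genes of the hindgut near 0 in 1 library labelled rectum. Outside them, Hoxb13, Hoxd13 and Hoxa13 lay at 0.666, 0.787 and 0.242 FPKM in Lgr5-Cdx2-Apc replicate 2. In replicate 1 of that group they lay at 10.4, 4.08 and 3.29 FPKM.

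The libraries also differed by sex-linked transcripts, which the rule leaves out of the members. Of 17360 genes tested with limma, 6 passed an adjusted p of 0.05 (0.0346% of the genes tested), and all 6 lie on the X or Y chromosome. Xist, the RNA that coats the inactive X chromosome of female cells, was at 97.3, 163, 61.1 and 156 FPKM in Lgr5-Apc and at 1.12, 0.702 and 0.893 FPKM in Cdx2-Apc, a log2 difference of 5.88 ± 0.32 (SE) with an adjusted p of 4.7e-05. The other 5 were the Y-linked genes Kdm5d, Ddx3y, Uty, Eif2s3y and Gm28588. Eif2s3y, a translation factor subunit, was listed at 0 in all 4 Lgr5-Apc libraries and lay at 24.7, 25.1 and 28.5 FPKM in Cdx2-Apc. Cdx2-Apc was the one group of the 4 with low Xist, and the driver and the sex-linked pattern cannot be told apart in these groups.

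**Figure D1:**
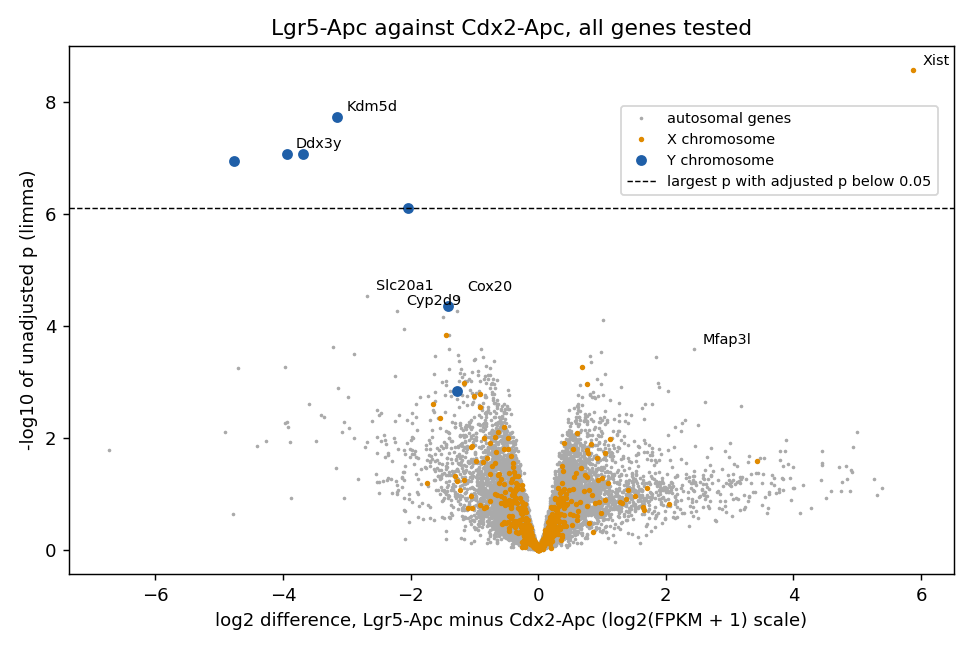
Log2 difference between Lgr5-Apc and Cdx2-Apc (x axis, log2(FPKM + 1) scale) against the −log10 of the unadjusted limma p (y axis) for the 17360 genes tested, with autosomal members in grey, X-linked genes in orange and Y-linked genes in blue. Points at or above the dashed line have an adjusted p below 0.05: these are Xist on the right and 5 Y-linked genes on the left, and no autosomal member reaches the line.

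No autosomal member passed the test. In the limma fit, 0 of 15297 members had an adjusted p below 0.05 (0%), and the smallest adjusted p was 0.0654, for Slc20a1 and Cox20. At an unadjusted p under 0.05 there were 724 members with the higher value in Lgr5-Apc (4.73%) and 948 with the lower value (6.2%). All 4 Lgr5-Apc libraries stood above all 3 Cdx2-Apc libraries for 698 members (4.56%) and below them for 1018 (6.65%). The median log2 difference over the members was -0.01, with quartiles at -0.25 and 0.23. The absence of calls was not the same in every fit: weights for library quality gave 45 autosomal calls (11 higher and 34 lower), and leaving out single libraries gave between 0 and 7, the most without Lgr5-Apc replicate 1.

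The spread was wider in Lgr5-Apc. The median SD of log2(FPKM + 1) over members was 0.383 in Lgr5-Apc, 0.186 in Cdx2-Apc and 0.255 in the control group, and 12436 members (81.3%) had the larger SD in Lgr5-Apc than in Cdx2-Apc. An SD above 1 was found for 1848 members in Lgr5-Apc and 353 in Cdx2-Apc. Across members, Pearson's r was between 0.936 and 0.961 for pairs of Cdx2-Apc libraries and between 0.68 and 0.909 for pairs of Lgr5-Apc libraries; genes are not independent replicates, so these are descriptions. Lgr5-Apc replicate 1 was more like each of the 3 Cdx2-Apc libraries (0.922, 0.929 and 0.943) than like any library of its own group (0.788, 0.895 and 0.868).

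The targeted gene and the genes that name the drivers did not separate the groups. Apc lay at 14.6, 14.1, 14.9 and 18.6 FPKM in Lgr5-Apc and at 17.6, 15.3 and 17.2 FPKM in Cdx2-Apc, beside 18.8, 15.9 and 16.5 FPKM in the control group. The log2 difference between the drivers was -0.10 with an adjusted p of 0.778, and since an FPKM value covers the whole transcript it does not check whether the floxed exons were removed. Lgr5 lay at 1.75, 1.3, 1.4 and 4.72 FPKM in Lgr5-Apc and at 2.81, 3.77 and 4.16 FPKM in Cdx2-Apc, so 3 of the 4 Lgr5-Apc libraries were below every Cdx2-Apc library and replicate 4 was above them all. Its log2 difference was -0.57 with an adjusted p of 0.524.

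Among Apc, Lgr5 and Cdx2, it was Cdx2 that had the widest split within a group. Its values were 0.836, 0.248, 0.858 and 151 FPKM in Lgr5-Apc and 15.7, 30.4 and 17.7 FPKM in Cdx2-Apc, beside 2.71, 4.19 and 22 FPKM in the control group. Replicates 1 to 3 of Lgr5-Apc were the lowest of the 12 libraries and replicate 4 was the highest, so the log2 difference of -2.08 had an adjusted p of 0.61. Cdx1, a related homeobox gene, did not follow this pattern, with 112, 21.4, 106 and 134 FPKM in Lgr5-Apc and 111, 129 and 129 FPKM in Cdx2-Apc.

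Wnt pathway genes differed in both directions between the drivers, and none passed the test. Of 24 Wnt target genes among the members, 3 had an unadjusted p under 0.05 with the higher value in Lgr5-Apc and 2 with the lower. Over all members these shares were 4.73% higher and 6.2% lower, and the shares without overlap were 4.56% and 6.65%. The counts of each list below are to be read beside these shares. Lists were chosen with earlier results of these data known, so their counts are descriptions and no test. The median log2 difference of the Wnt targets was -0.06. Axin2, a target that feeds back on the pathway, lay at 6.87, 9.37, 5.85 and 11.7 FPKM in Lgr5-Apc and at 12.1, 12.7 and 12.3 FPKM in Cdx2-Apc. All 4 Lgr5-Apc values were below the Cdx2-Apc values, with a log2 difference of -0.54 and an adjusted p of 0.457. Plaur, the urokinase receptor, pointed the other way at 3.83, 2.81, 3.46 and 4.52 FPKM against 1.15, 1.23 and 2 FPKM (log2 difference 0.92, adjusted p 0.246). Myc, which codes for a growth-promoting transcription factor, overlapped between the groups at 12.2, 56.5, 24 and 9.78 FPKM against 14.1, 13.6 and 16 FPKM.

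Among 14 members of the destruction complex and its TCF partners, 2 were higher in Lgr5-Apc at an unadjusted p under 0.05 and 1 was lower. The shares of all members were 4.73% and 6.2%. Axin1, the scaffold that limits the complex, lay at 15.6, 16.5, 20.4 and 14.9 FPKM in Lgr5-Apc and at 11.4, 11.9 and 12.8 FPKM in Cdx2-Apc. Gsk3a, 1 of the kinases that phosphorylate beta-catenin, lay at 23.8, 24.6, 28.3 and 27.3 FPKM against 19, 19.4 and 19 FPKM. Both genes had every Lgr5-Apc value above every Cdx2-Apc value, by 0.45 and 0.42 on the log2 scale, and neither passed the test (adjusted p of 0.392 and 0.431). Ctnnb1, which codes for beta-catenin, differed by 0.01.

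Of 17 stem cell genes, 1 had an unadjusted p under 0.05 with the higher value in Lgr5-Apc and 3 with the lower (all members 4.73% and 6.2%). Their median was -0.09. Ascl2, a transcription factor of the stem cell, lay at 3.57, 3.77, 2.4 and 2.84 FPKM in Lgr5-Apc and at 5.99, 7.45 and 5.51 FPKM in Cdx2-Apc. Its libraries did not overlap, and the log2 difference of -0.82 had an adjusted p of 0.35. Lrig1, a brake on growth factor receptors, differed by -0.52 (adjusted p 0.426). Cd44, an adhesion receptor also found on squamous cells, lay at 10.6, 119, 54.2 and 39.2 FPKM against 10, 8.57 and 18 FPKM, highest in the 2 Lgr5-Apc libraries with the highest squamous scores; the part of those cells in the difference was not tested.

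Of 25 proliferation genes, 3 had an unadjusted p under 0.05, all with the lower value in Lgr5-Apc (all members 6.2%). The median was -0.20 (-0.10 to -0.33 without single libraries). Tyms, which makes thymidylate for DNA synthesis, lay at 5.51, 5.89, 6.81 and 4.75 FPKM in Lgr5-Apc and at 8.03, 8.19 and 7.94 FPKM in Cdx2-Apc (log2 difference -0.43, adjusted p 0.39). The replication helicase subunits Mcm2 and Mcm6 differed by -0.50 and -0.36.

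**Figure D2:**
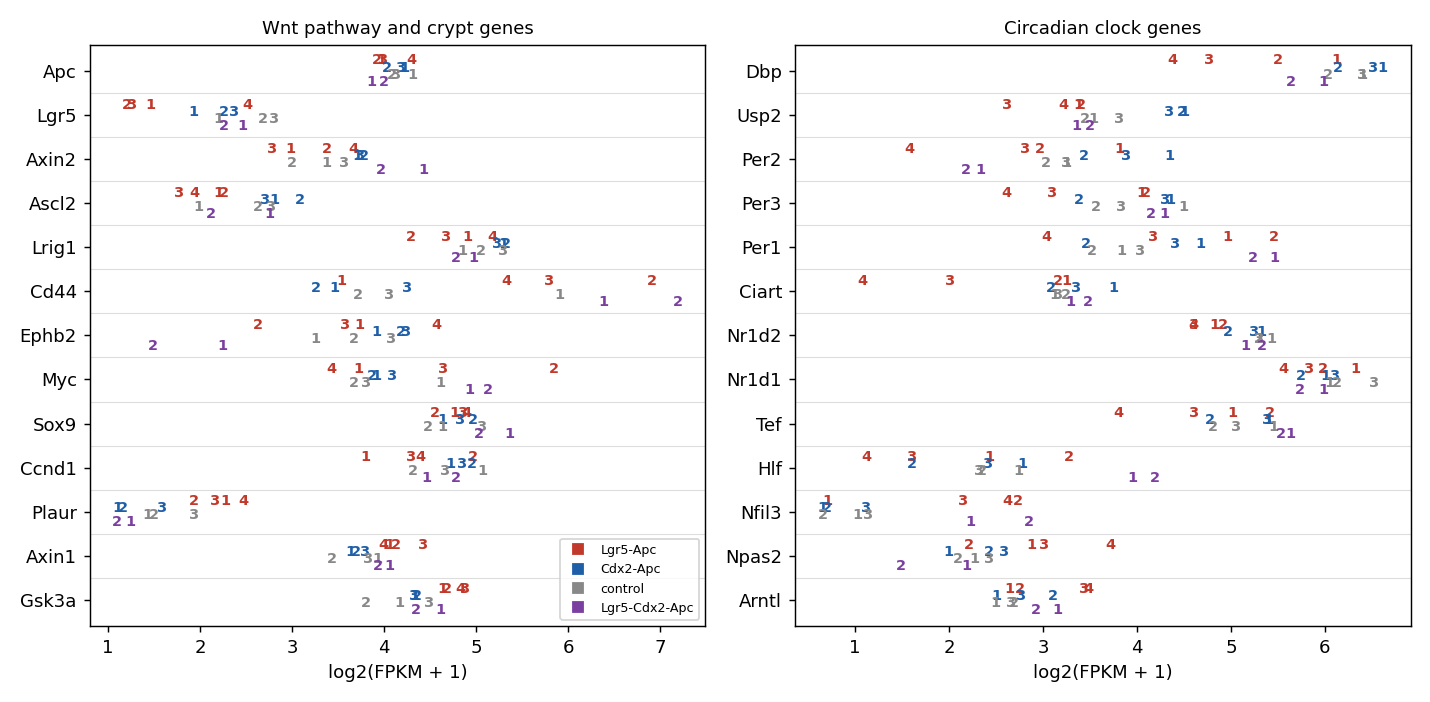
log2(FPKM + 1) of Wnt pathway and crypt genes (left) and of circadian clock genes (right) in the 12 libraries, with a digit for the replicate number and a colour for the group. Apc, Myc and Sox9 overlap between Lgr5-Apc and Cdx2-Apc, Axin2 and Ascl2 do not, and Lgr5-Apc replicate 4 is lowest of its group for Dbp, Per2, Per1 and Ciart.

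The autosomal genes with the smallest p had lower values in Lgr5-Apc, and none of them passed the test. Slc20a1 codes for a sodium-dependent phosphate importer and sits on chromosome 2 (GRCm38, 129198764 to 129211616). It lay at 43.5, 18.1, 36 and 38.7 FPKM in Lgr5-Apc, at 200, 252 and 195 FPKM in Cdx2-Apc and at 95.1, 117 and 113 FPKM in the control group. The control libraries fell between the 2 driver groups with no overlap on either side, and the log2 difference between drivers was -2.69 ± 0.38 (SE) with an adjusted p of 0.0654. With either Lgr5-Cdx2-Apc library left out of the estimate of the spread, the same difference had an adjusted p of 0.00921 or 0.00945. Other settings moved it away from the threshold. The smallest limma adjusted p of any member was 0.172 with the smooth muscle score as a covariate, 0.139 without control replicate 3 and 0.129 after median-of-ratios scaling.

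Cox20, an assembly factor of cytochrome c oxidase on chromosome 1 (GRCm38, 178319130 to 178322693), had the same adjusted p of 0.0654. It lay at 34.5, 29.3, 42.1 and 32.6 FPKM in Lgr5-Apc, at 88.7, 82.6 and 80.2 FPKM in Cdx2-Apc and at 50.4, 81.2 and 74.8 FPKM in the control group. Here 2 of the 3 control libraries were near the Cdx2-Apc level and all 4 Lgr5-Apc libraries were below every control library, with a log2 difference between drivers of -1.26 ± 0.18 (SE). Without control replicate 1 the adjusted p was 0.0153, whereas without control replicate 3 no member was below 0.139.

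The 250 bases upstream of the transcription start are shown for these 2 genes because they had the smallest p of all members. They were taken from RefSeq on GRCm38.p6 and searched on both strands for CACGTG, TTATGNAA and ATCAAAG, the letters bound by E-box, D-box and TCF/LEF factors. Capitals mark the matches. The Slc20a1 stretch, chr2:129198523-129198772 on the plus strand, holds 2 matches to CACGTG, 175 and 22 bases before the start. The Cox20 stretch, chr1:178318903-178319152 on the plus strand, holds no match.
Slc20a1: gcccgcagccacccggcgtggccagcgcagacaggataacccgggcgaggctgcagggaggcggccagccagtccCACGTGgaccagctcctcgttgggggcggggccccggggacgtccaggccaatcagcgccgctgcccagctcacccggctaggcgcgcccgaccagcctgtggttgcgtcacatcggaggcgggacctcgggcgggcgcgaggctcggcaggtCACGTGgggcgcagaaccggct
Cox20: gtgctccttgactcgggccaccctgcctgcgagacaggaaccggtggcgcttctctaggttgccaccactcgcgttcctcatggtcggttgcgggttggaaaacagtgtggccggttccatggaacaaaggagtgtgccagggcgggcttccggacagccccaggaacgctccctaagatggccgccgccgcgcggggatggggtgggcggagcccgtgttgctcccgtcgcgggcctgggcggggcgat
From 250 bases before to 50 bases after the start, CACGTG was present for 8.11% of the 25748 genes with a RefSeq window and for 11.4% of the 10110 members with one. A match is a description of letters and not of binding.

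Cyp2d9, a cytochrome P450, lay at 3.02, 0.617, 2.16 and 1.25 FPKM in Lgr5-Apc and at 12, 11.9 and 9.52 FPKM in Cdx2-Apc (log2 difference -2.21 ± 0.34, adjusted p 0.0787). Usp2, a deubiquitinase whose transcript cycles with the clock, lay at 9.4, 9.58, 5.12 and 8.32 FPKM in Lgr5-Apc and at 21.7, 21.2 and 19.2 FPKM in Cdx2-Apc. The control libraries, at 10.6, 9.93 and 13 FPKM, were nearer to Lgr5-Apc, and the log2 difference between drivers was -1.28 ± 0.20 with an adjusted p of 0.0787. Fxyd6, a modulator of the sodium pump, differed by -1.49 (adjusted p 0.0913), and Gatm, which makes the precursor of creatine, by -2.11 (0.131).

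Nxpe4 lay at 9.19, 1.16, 9.57 and 2.44 FPKM in Lgr5-Apc and at 40.5, 66 and 41.8 FPKM in Cdx2-Apc, a log2 difference of -3.21 ± 0.59 with an adjusted p of 0.206. C3, the central complement component, lay at 7.29, 5.96, 4.74 and 6.95 FPKM against 51.9, 25.6 and 105 FPKM, and C4bp, a complement regulator, at 2.75, 0.891, 2.95 and 1.55 FPKM against 8.06, 6.35 and 5.66 FPKM. Their differences were -2.89 and -1.39, neither of which passed. Esrrg, an orphan nuclear receptor, differed by -1.62 (adjusted p 0.216).

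On the higher side, no member came as near to the threshold. Mfap3l lay at 8.99, 34.9, 26.5 and 32 FPKM in Lgr5-Apc and at 2.75, 2.73 and 5.05 FPKM in Cdx2-Apc, a log2 difference of 2.44 ± 0.45 (SE) with an adjusted p of 0.206. Without Lgr5-Apc replicate 1, the lowest of its group, the difference was 2.86 and the adjusted p 0.019. Mxd4, a repressor that competes with Myc for its partner Max, lay at 31.9, 38.5, 35 and 48.9 FPKM against 17, 18 and 21.6 FPKM. Its log2 difference was 0.98 with an adjusted p of 0.216, and the control libraries (20.7, 16.1 and 23.7 FPKM) were at the Cdx2-Apc level.

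Fam43a differed by 1.84 and Rnf39 by 2.04, each with its highest Lgr5-Apc value more than 3 times its lowest. Dusp5, a phosphatase that turns off ERK in the nucleus, lay at 8.18, 8.64, 9.53 and 6.22 FPKM in Lgr5-Apc and at 3.61, 4.06 and 4.95 FPKM in Cdx2-Apc (log2 difference 0.81, adjusted p 0.269). Cyp2s1, a cytochrome P450 of surface epithelia, lay at 57.7, 73.1, 80.9 and 59.5 FPKM against 24.7, 34.6 and 48.3 FPKM. The rest of the 10 named on this side, Slc36a4, Ino80c, Ssfa2 and Kctd17, differed by 0.63 to 0.99, and none passed.

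**Figure D3:**
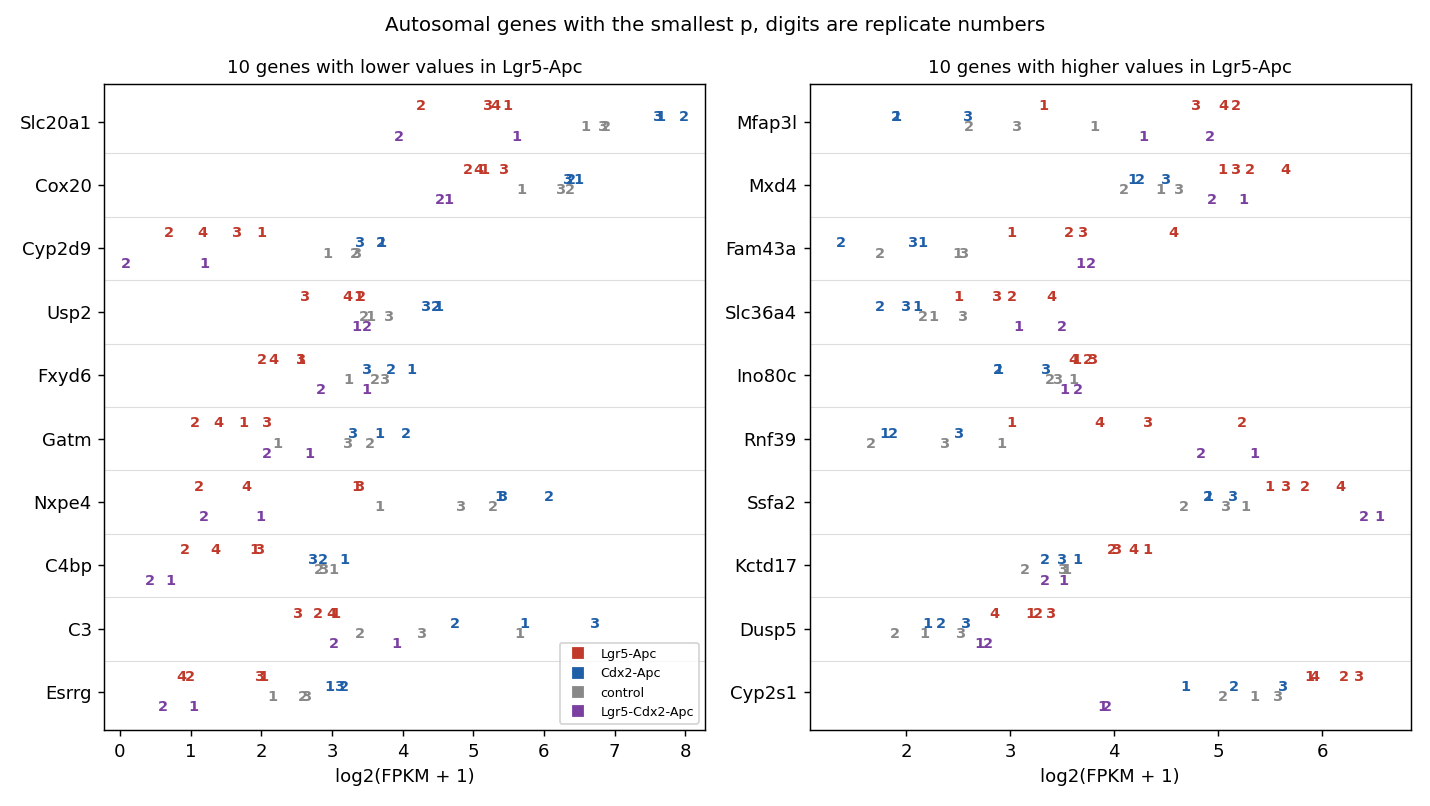
log2(FPKM + 1) of the 10 named genes with lower (left) and the 10 with higher (right) values in Lgr5-Apc, in the 12 libraries, with a digit for the replicate number and a colour for the group. Slc20a1 shows 3 separate levels, with Lgr5-Apc at 43.5 FPKM or less, the control group between 95.1 and 117 and Cdx2-Apc at 195 or more.

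Most genes of the surface colonocyte, a list of transporters and other genes such as Car2 and Saa1, had lower values in Lgr5-Apc. None passed the test. Of 25 such genes, 9 had an unadjusted p under 0.05 with the lower value in Lgr5-Apc and 1 with the higher (all members 6.2% and 4.73%). No overlap between the groups was found for 13 and 1 (all members 6.65% and 4.56%). The median log2 difference was -1.23. The list holds Slc20a1, which was already named for its small p in these data, so these counts are no test. Car2, a cytosolic carbonic anhydrase, lay at 353, 173, 328 and 354 FPKM in Lgr5-Apc and at 809, 828 and 761 FPKM in Cdx2-Apc. The control libraries spanned 332 to 622 FPKM, below every Cdx2-Apc library, and the log2 difference between drivers was -1.46 (adjusted p 0.269).

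Aqp4, a water channel, lay at 0.805, 1.02, 0.658 and 12.1 FPKM in Lgr5-Apc and at 17.1, 39.8 and 23.3 FPKM in Cdx2-Apc. Saa1, an acute-phase protein made in colonocytes and in liver, lay at 62.3, 53.9, 114 and 36.6 FPKM against 414, 537 and 531 FPKM (log2 difference -2.98, adjusted p 0.269). Slc26a3, the chloride and bicarbonate exchanger of the apical membrane, lay at 227, 38.4, 156 and 78.8 FPKM against 427, 470 and 425 FPKM. In all 3 the groups were apart, and so were they for Slc26a2, a sulfate transporter (-1.23), Slc5a8, a carrier of short-chain fatty acids (-1.54), and Aqp8, a water channel (-2.40).

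Scnn1b was the exception. This subunit of the aldosterone-regulated sodium channel lay at 11.3, 7.72, 15.5 and 5.28 FPKM in Lgr5-Apc and at 2.56, 2.75 and 4.88 FPKM in Cdx2-Apc, a log2 difference of 1.26 with an adjusted p of 0.3. Car1, another carbonic anhydrase, overlapped at 1080, 178, 1099 and 7888 FPKM against 1285, 1212 and 1281 FPKM, with its highest and lowest values both in Lgr5-Apc. The columnar score moved with the colonocyte score in Lgr5-Apc replicate 2, which held the lowest value of both (6.45 and 4.43). Without that library the median of the colonocyte list was -0.78.

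Secretory genes were read by cell type, and none passed the test. The 8 deep crypt secretory genes mark the Reg4-positive cells that flank colonic stem cells. Of these, 2 had an unadjusted p under 0.05 and 4 had no overlap, all lower in Lgr5-Apc (all members 6.2% and 6.65%). Their median was -2.25. Mptx1, a mucosal pentraxin, lay at 188, 43.8, 340 and 10.3 FPKM in Lgr5-Apc and at 893, 1533 and 1099 FPKM in Cdx2-Apc (log2 difference -3.92, adjusted p 0.352). Reg4 lay at 84.5, 17.2, 131 and 30.6 FPKM against 182, 330 and 234 FPKM. For both genes replicates 2 and 4 were the lowest of Lgr5-Apc, and without replicate 4 the median of the list was -1.36.

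The 16 goblet cell genes had a median of -0.42, none had an unadjusted p under 0.05, and the median was 0.07 without Lgr5-Apc replicate 2 and -0.98 without replicate 4. Muc2, the mucin that forms the colonic mucus, lay at 204, 36.6, 156 and 7725 FPKM in Lgr5-Apc and at 286, 362 and 373 FPKM in Cdx2-Apc, so Lgr5-Apc held both the lowest and the highest library. Of 13 enteroendocrine genes, 1 was lower and 1 higher at an unadjusted p under 0.05 (all members 6.2% and 4.73%). Their median of -0.47 was 0.02 without Lgr5-Apc replicate 2, -0.28 without replicate 3 and -1.31 without replicate 4. Insl5, a hormone of distal colonic L cells, lay at 20.8, 2.49, 24.6 and 3.96 FPKM against 87.5, 88.8 and 67.2 FPKM (log2 difference -3.04, adjusted p 0.338).

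Genes of position along the gut had lower values in some Lgr5-Apc libraries, and none passed the test. Of 16 posterior identity genes, 2 had an unadjusted p under 0.05 and 3 had no overlap, all lower in Lgr5-Apc (all members 6.2% and 6.65%). Their median was -0.68 (-0.30 without Lgr5-Apc replicate 2). Hoxa10 lay at 15.6, 6.75, 12.1 and 2.63 FPKM in Lgr5-Apc and at 16.8, 18.8 and 18.2 FPKM in Cdx2-Apc. Foxa2, a forkhead factor of gut endoderm, lay at 10.7, 2.03, 8.69 and 6.45 FPKM against 14.8, 18.3 and 14.5 FPKM. Neither passed the test (adjusted p of 0.431 and 0.416).

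Lgr5-Apc replicate 4, with Hoxb13 and Hoxd13 near 0, held the highest Cdx2, Car1 and Muc2 of the 7 libraries. It also held Reg3b, an antimicrobial lectin, at 504 FPKM, where the other 6 libraries lay between 0 and 1.64 FPKM. With replicate 4 left out, 10 genes were called, 4 of them autosomal and all 4 lower in Lgr5-Apc.

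**Figure D4:**
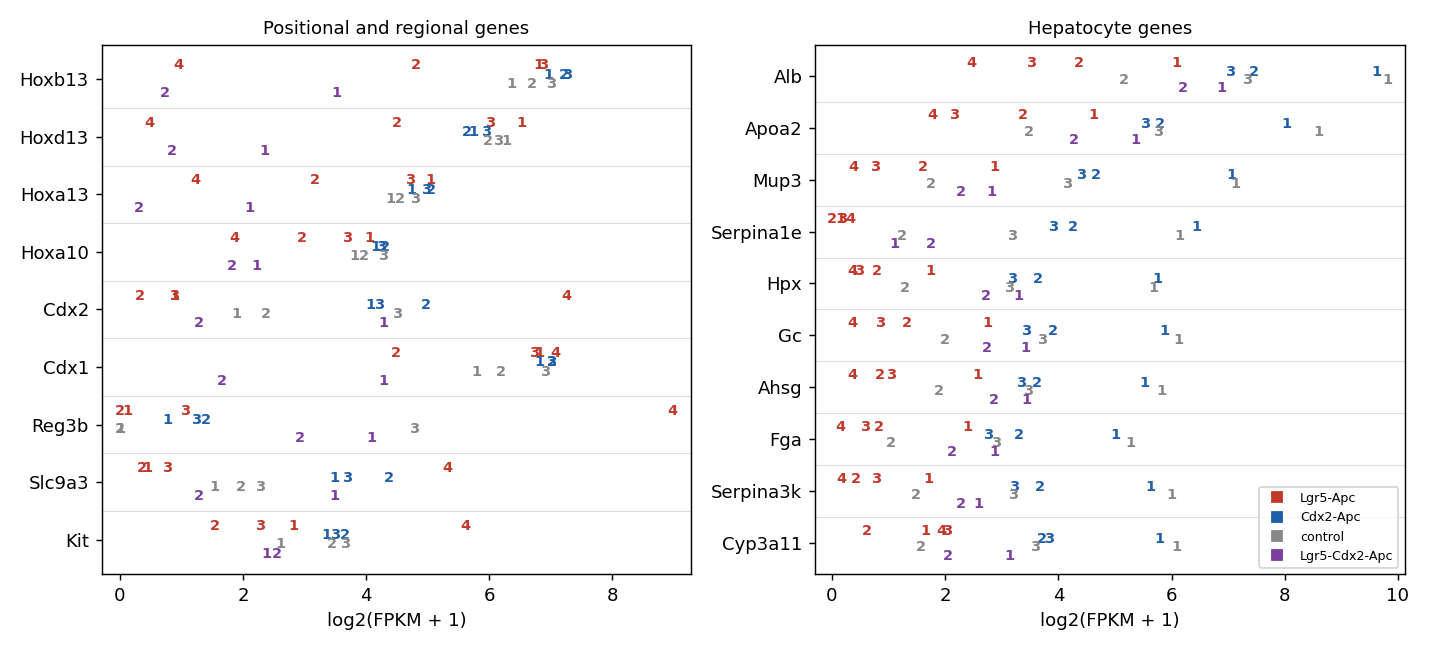
log2(FPKM + 1) of genes of gut position and region (left) and of hepatocyte genes (right) in the 12 libraries, with a digit for the replicate number and a colour for the group. Lgr5-Apc replicate 4 is at the low end for Hoxb13 (0.924 FPKM) and the high end for Cdx2 (151 FPKM) and Reg3b (504 FPKM), and all hepatocyte genes drawn are lower in every Lgr5-Apc library than in every Cdx2-Apc library.

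Genes of other tissues spread widely within the Lgr5-Apc group. The 30 squamous genes had a median log2 difference of 3.61, with 5 higher in Lgr5-Apc at an unadjusted p under 0.05 (all members 4.73%). Yet no gene of this list stood higher in all 4 Lgr5-Apc libraries. The median was 2.35 without Lgr5-Apc replicate 2 and 0.23 without replicates 2 and 3. Krt13, a keratin of moist stratified epithelium, lay at 304, 5071, 3100 and 0.88 FPKM in Lgr5-Apc and at 1.25, 1.67 and 65.9 FPKM in Cdx2-Apc, and its control libraries lay at 1015, 22 and 13.1 FPKM. Skeletal muscle genes were highest in Lgr5-Apc replicate 2, with a score of 5.36 against 0.78 to 2.75 in the other 6 libraries, and their median difference of 1.62 was 0.61 without it. The 22 smooth muscle genes all had a negative difference with a median of -0.44, and none had an unadjusted p under 0.05 (scores of 6.08, 4.37, 5.31 and 4.22 against 6.34, 5 and 5.19). Without single libraries that median lay between -0.85 and -0.05.

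Hepatocyte genes, a list of 27 drawn up after their values were seen, had lower values in Lgr5-Apc than in Cdx2-Apc. In 23 of the 27, every Lgr5-Apc library was below every Cdx2-Apc library, where all members gave 6.65%. Choosing the list with its values in view favours such a count, so it describes these genes and is no test. The median log2 difference was -2.47. Alb, which codes for serum albumin, lay at 66.7, 19.5, 10.6 and 4.49 FPKM in Lgr5-Apc, at 781, 174 and 132 FPKM in Cdx2-Apc and at 902, 34.7 and 163 FPKM in the control group. Serpina1e, an antitrypsin of mouse liver, lay at 0.11, 0, 0.14 and 0.252 FPKM against 86.1, 18.1 and 14.1 FPKM, beside 69.6, 1.35 and 8.15 FPKM in the control group. The scores were 2.47, 1.55, 1.23 and 0.81 in Lgr5-Apc, 5.37, 3.56 and 3.32 in Cdx2-Apc and 5.62, 1.83 and 3.35 in the control group. The highest values were in replicate 1 of Cdx2-Apc and of the control group, and control replicate 1 also had the highest Y-linked values outside Cdx2-Apc (Kdm5d 0.9 FPKM against 0.108 and 0.0354 in the other control libraries). Liver is a known source of C3, C4bp, Cyp2d9 and Saa1 as well. With Cdx2-Apc replicate 1 and control replicate 1 left out, the log2 difference was -2.89 for C3, -1.27 for C4bp and -2.16 for Cyp2d9, while the remaining Cdx2-Apc libraries still had hepatocyte scores of 3.56 and 3.32 against at most 2.47 in Lgr5-Apc. The part of hepatocyte RNA in the differences of these 4 genes was not tested.

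**Figure D5:**
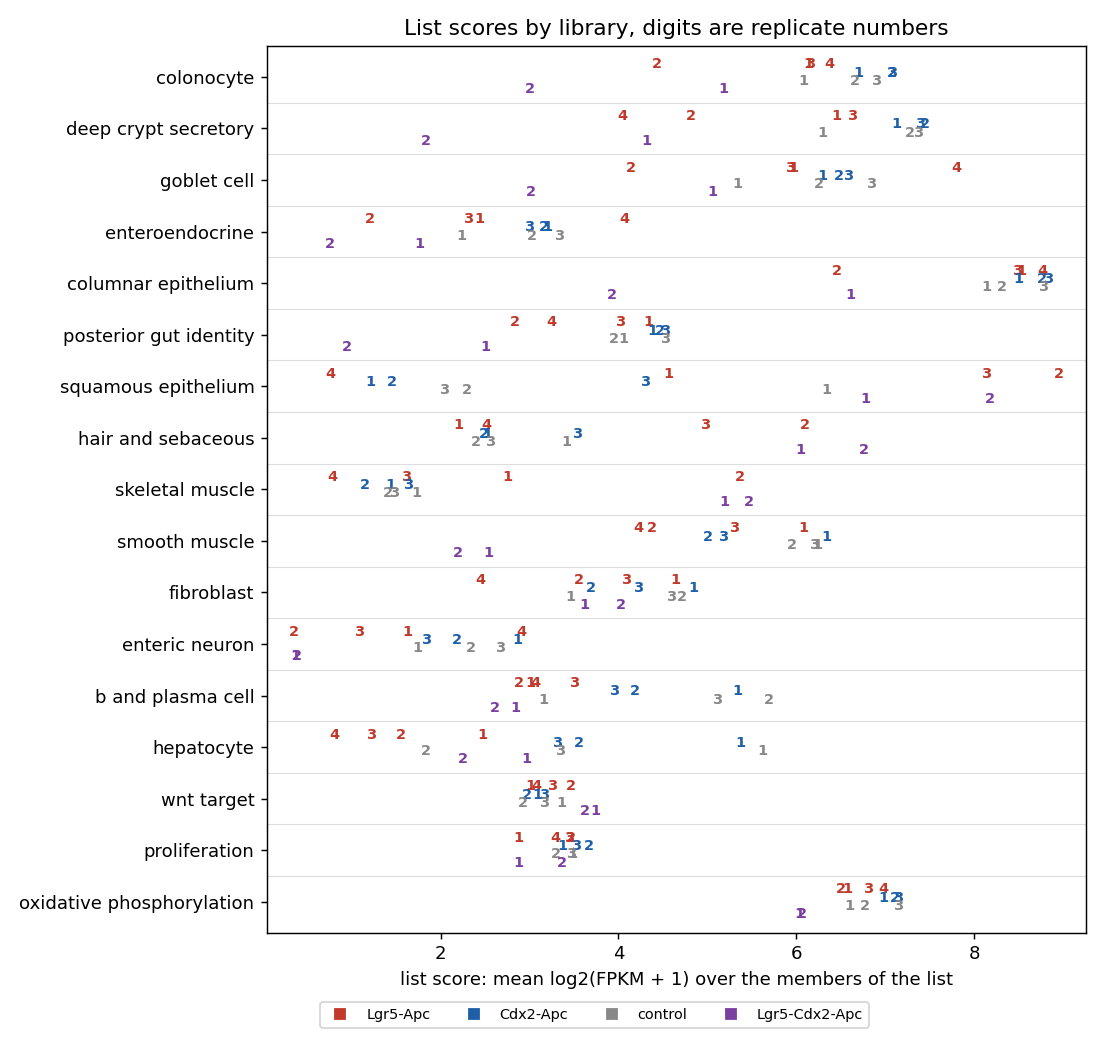
Scores of 17 gene lists (x axis, mean log2(FPKM + 1) over the members) in the 12 libraries, with a digit for the replicate number and a colour for the group. The squamous score spans 0.76 to 8.95 within Lgr5-Apc, the colonocyte score of all 4 Lgr5-Apc libraries is below the 3 Cdx2-Apc scores, and the Wnt target scores lie between 2.97 and 3.47 in the 7 libraries.

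Most genes of the B and plasma cell list had lower values in Lgr5-Apc, and none passed the test. Of 9 genes, 3 had an unadjusted p under 0.05 and 5 had no overlap, all lower (all members 6.2% and 6.65%). The median was -0.92 (-2.75 with a pseudocount of 0.1 FPKM). Pigr, the antibody receptor of epithelial cells, was among the 5, at 576, 139, 501 and 606 FPKM in Lgr5-Apc against 633, 830 and 705 FPKM in Cdx2-Apc. Sdc1 pointed the other way at 58.3, 274, 173 and 75.6 FPKM against 49, 60.4 and 79.3 FPKM. Igkc, the kappa light chain constant region, lay at 4.3, 0.238, 3.88 and 1.97 FPKM in Lgr5-Apc and at 214, 22.5 and 18.8 FPKM in Cdx2-Apc, beside 7.78, 491 and 187 FPKM in the control group. The difference of -3.89 had an adjusted p of 0.375, and the control values ranged from below to above the Cdx2-Apc values, with every Lgr5-Apc value below them. Lyz2, the lysozyme of macrophages, lay at 22.6, 4.97, 21 and 4.55 FPKM against 43.1, 45.8 and 45.9 FPKM (adjusted p 0.373). In the list of macrophage and dendritic cell genes that holds it, C1qa had no overlap either (-0.91). Csf1r, Adgre1, Cd68 and Itgax overlapped between the groups, with log2 differences of -0.46, -0.30, -0.22 and -0.26. Cd207 pointed the other way at 0.79, also with overlap.

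Of 22 interferon response genes, 7 had an unadjusted p under 0.05 and 5 had no overlap, all lower in Lgr5-Apc (all members 6.2% and 6.65%). Their median was -0.63. Isg15, a ubiquitin-like protein induced by interferon, lay at 1.07, 1.22, 1.16 and 5.31 FPKM in Lgr5-Apc and at 12.2, 4.47 and 4.24 FPKM in Cdx2-Apc. Psmb9, an immunoproteasome subunit, lay at 3.21, 4.05, 4.59 and 6.14 FPKM against 8.56, 8.5 and 8.85 FPKM. Neither passed (adjusted p of 0.39 and 0.371).

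Circadian genes were split. Of 18, 5 had an unadjusted p under 0.05 with the lower value in Lgr5-Apc and 1 with the higher (all members 6.2% and 4.73%). Their median was -0.08. Dbp, a transcription factor of the clock's output, lay at 68.8, 44.1, 26.3 and 19.7 FPKM in Lgr5-Apc and at 96.7, 69.4 and 90.4 FPKM in Cdx2-Apc. Nfil3, which represses through the same D-box that Dbp activates, lay at 0.631, 5.64, 3.42 and 5.13 FPKM against 0.576, 0.625 and 1.17 FPKM. Their log2 differences were -1.23 and 1.23, with adjusted p of 0.346 and 0.398, and the labels give no hour of harvest. Per2, a repressor of the core loop, lay at 13, 6.81, 6.01 and 1.99 FPKM against 19.3, 9.85 and 13.8 FPKM, so its groups overlapped. Nr1d1 differed by -0.03 and Per1 by 0.23.

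Of 23 oxidative phosphorylation genes, 7 had an unadjusted p under 0.05 and 5 had no overlap, all lower in Lgr5-Apc (all members 6.2% and 6.65%). Their median was -0.38. Ndufs1, a complex I subunit, lay at 41.7, 41.8, 50.1 and 61.2 FPKM in Lgr5-Apc and at 61.7, 77.1 and 68.6 FPKM in Cdx2-Apc (log2 difference -0.51, adjusted p 0.369). Of 25 genes of xenobiotic metabolism, 4 had an unadjusted p under 0.05, all lower (all members 6.2%). Their median was -0.58 (-0.08 without Lgr5-Apc replicate 2 and -1.05 without replicate 4). Gstm1, a glutathione transferase, lay at 84.7, 106, 95.7 and 108 FPKM against 166, 147 and 131 FPKM (log2 difference -0.58, adjusted p 0.318).

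Stress genes gave differences in both directions. Hsp90aa1, a heat-inducible chaperone, lay at 10.2, 13.3, 13.7 and 10.7 FPKM in Lgr5-Apc and at 21.5, 20.8 and 16.7 FPKM in Cdx2-Apc, whereas Atf4, the transcription factor of the integrated stress response, lay at 53.6, 61.5, 68.6 and 80.4 FPKM against 42.5, 45.8 and 47.5 FPKM. Their log2 differences were -0.67 and 0.52, with adjusted p of 0.259 and 0.37. In the same list, Dnaja1 and Hsph1 were also lower in Lgr5-Apc with no overlap (-0.56 and -0.64). Hspa1a, Hspa1b and Hspb1 had positive differences (0.73, 0.86 and 1.10) with overlap. Their highest Lgr5-Apc values were in replicate 2, at 11.8, 38.4 and 168 FPKM. Of 14 genes of the p53 response and apoptosis, 1 was higher and 2 lower at an unadjusted p under 0.05 (all members 4.73% and 6.2%). Gdf15, a stress-induced cytokine, lay at 3.31, 0.653, 1.05 and 2.14 FPKM against 8.54, 5.77 and 4.49 FPKM, and Cdkn1a, the p21 cell cycle inhibitor, at 84.7, 103, 105 and 103 FPKM against 54.1, 69.9 and 79.8 FPKM. Neither passed (adjusted p of 0.246 and 0.422).

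Genes whose level differs between common laboratory strains were read because the labels name no strain. Of 6 such genes, 2 had an unadjusted p under 0.05, both lower in Lgr5-Apc with no overlap (all members 6.2% and 6.65%). The others, Alad, Glo1, Wdfy1 and Ide, overlapped between the groups, with log2 differences of 0.04, -0.06, 0.12 and 1.28. Hdhd3 lay at 5.93, 5.01, 5.36 and 8.31 FPKM in Lgr5-Apc and at 12.3, 11.9 and 13.4 FPKM in Cdx2-Apc (log2 difference -0.94, adjusted p 0.246). Nnt codes for the mitochondrial transhydrogenase and is deleted in part in some C57BL/6 colonies. It lay at 6.78, 4.27, 5.38 and 9.2 FPKM against 10.5, 11.2 and 10.9 FPKM. An FPKM value covers the whole transcript, so it does not check whether the deleted part was present in either group. Pla2g2a, a secreted phospholipase known as a modifier of intestinal tumours in Apc-mutant mice, was named after its values were seen, since its mean is under the 5 FPKM of the naming rule. It lay at 0.276, 0, 0.179 and 0.383 FPKM in Lgr5-Apc and at 2.29, 3.14 and 1.51 FPKM in Cdx2-Apc, beside 0.526, 0.669 and 0.6 FPKM in the control group. The log2 difference was -1.43 with an adjusted p of 0.0776, and whether genetic background differed between the groups was not tested.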

How the data were processed

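RNA was extracted with an RNeasy Plus kit and DNase and made into NEBNext Ultra II Directional libraries, per the labels' protocols. The deposited table holds 1 FPKM value per gene and library. STAR, Cufflinks and Cuffdiff and the mm10 build are listed in the submitters' processing notes, with no versions. Its header names no unit, so FPKM was read from the tools and the values. The authors' rescaling between libraries, the annotation and read depth are not given in the sources used here, so counting error could not be computed, and 0 means only that the table lists 0.

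Of 27831 lines, 25 carried names turned into dates and were kept unnamed, and 44 symbols stood on several lines, of which the 1 with the greatest mean stayed. Positions came from GENCODE M21 and RefSeq on GRCm38 and covered 97.7% of genes. All differences are on the scale log2(FPKM + 1), whose pseudocount is 1 FPKM, which understates changes of low genes. The 17360 genes reaching 1 FPKM in 2 or more of 12 libraries were fitted with limma 3.58.1 in R 4.3.3, with 1 mean per group over all 12 libraries and empirical Bayes moderation along the intensity trend. Tests were two-sided, with Benjamini-Hochberg adjustment over the 17360 genes and a threshold of 0.05, and the script was tested on simulated data.

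In each direction the text names up to 10 autosomal genes with the largest difference among those called, and otherwise those with the smallest p, provided that the higher group averaged 5 FPKM or more and libraries did not overlap; unnamed gene models, small RNAs and antibody segments were skipped. It also names Apc, Lgr5, Cdx2, any called gene where few were called, and members of lists with the smallest p. Further members were named to show a list's range and were picked with their values in view. The members and lists were chosen with earlier results of these data known. Alternatives covered the pseudocount, the filter, scaling, the libraries fitted, weights, tissue scores as covariates and a replicate block. The joint omission of Lgr5-Apc replicates 2 and 4, and that of the libraries highest in hepatocyte genes, were added after seeing the data.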

Additional observations from a re-analysis of the deposited data

Results flagged for a closer look

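In groups of 4 libraries, a value was singled out when its distance to the nearest library passed Dixon's 95% critical value relative to the group's range, which chance does in about 1 of 20 groups. Of 63 groups looked at, 5 had such a library. Lgr5 at 4.72 FPKM and Cdx2 at 151 FPKM in Lgr5-Apc replicate 4 were far above the other 3 libraries of the group. The columnar epithelium score of 6.45 and the colonocyte score of 4.43 in Lgr5-Apc replicate 2 were far below them. The score of 13 genes of Notch signalling and cell fate, at 3.02 in Lgr5-Apc replicate 1, was far below the values of 3.52 to 3.56 in the other 3.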

How the results depend on the processing

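The 20 named autosomal genes kept their direction in 518 of 518 values under the alternatives, which their choice by no overlap fixes for the omissions of libraries and which is no sign of stability. Cdx2 turned to 0.07 with the squamous score as a covariate; the cause was not tested. Of 6 calls over all genes, 1 was left with a mean of at least 5 FPKM, which drops the Y-linked genes of lower mean and left Eif2s3y at an adjusted p of 0.0517, and there were 56 with library quality weights, 12 without the Lgr5-Apc replicates 2 and 4 and 10 without the libraries highest in hepatocyte genes. Leaving out single libraries gave 6 to 14 calls in all and 0 to 7 autosomal calls against 0. The library behind the most calls was Lgr5-Apc replicate 1 (14 calls without it, 7 autosomal), and 10 were called without Lgr5-Apc replicate 4 or control replicate 1. Autosomal calls came to 45 with weights, 3 without the Lgr5-Apc replicates 2 and 3, 6 without replicates 2 and 4 and 2 without the libraries highest in hepatocyte genes. The members without overlap, 1716 in all, came to 4252 without Lgr5-Apc replicates 2 and 3, 4688 without replicates 2 and 4 and between 2227 and 3514 without single libraries, since fewer libraries leave less room for overlap. Their split of 698 higher and 1018 lower was 963 and 1021 after median-of-ratios scaling and 1535 and 1197 without Cdx2-Apc replicate 3. Of 559 list medians under alternatives, 537 moved by less than the spread of the list's score and 22 by more.

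The replicate numbers did not pair the libraries: same-numbered deviations correlated at 0.259, -0.300 and 0.309. With the replicate block 8 genes were called, 3 of them autosomal. The limits are 3 and 4 libraries per group, unknown depth, and tissue content and sex-linked expression that differ between libraries and groups.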

Other observations

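Some further members, chosen after their values were seen, gave these values. Lpo, which codes for lactoperoxidase, lay at 0.703, 0.705, 1.85 and 19.6 FPKM in Lgr5-Apc and at 27.8, 103 and 58.9 FPKM in Cdx2-Apc, beside 4.61, 1.68 and 1.92 FPKM in the control group. Its log2 difference was -3.97 with an adjusted p of 0.238. Sord, sorbitol dehydrogenase, lay at 16.3, 15.5, 15.6 and 36.8 FPKM against 38.8, 41.2 and 34.6 FPKM, so replicate 4 of Lgr5-Apc was at the Cdx2-Apc level. Xpr1, the phosphate exporter, differed by -0.69 in the same direction as the importer Slc20a1. Eno3, an enolase placed on the skeletal muscle list, lay at 89.2, 38.5, 82.8 and 7.66 FPKM in Lgr5-Apc and at 206, 260 and 225 FPKM in Cdx2-Apc, the opposite order to Acta1, skeletal actin, at 12.6, 205, 3.19 and 3.25 FPKM against 1.5, 1.09 and 3.74 FPKM.

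Adipocyte genes, 11 of them, all had a positive difference with a median of 1.16, and none had an unadjusted p under 0.05; without Lgr5-Apc replicate 2 the median was 0.35. Their score was 3.07, 5.73, 1.51 and 1.76 in Lgr5-Apc and 2.29, 1.4 and 2.19 in Cdx2-Apc, highest in the library with the highest skeletal muscle score. Enteric neuron genes, 17 of them, all had a negative difference with a median of -0.77 (-0.33 without Lgr5-Apc replicate 2). Vip, a neuropeptide of enteric neurons, lay at 3.79, 0, 1.95 and 6.91 FPKM against 25.9, 12.7 and 8.96 FPKM (adjusted p 0.338).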
